A study of Schizosaccharomyces pombe with 6 samples.

Results

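The genes described here form the right end of fission yeast chromosome I. They are the 42 features, of 7268 in the count table, whose identifiers start with SPAC750, SPAC186, SPAC869, SPAC922 or SPAC1039, after ftm4 (SPAC750.05c), SPAC750.07c and pfl9 (SPAC186.01) were left out by name. In the reference gene order, 45 protein-coding genes lie from the innermost of them, SPAC1039.01, to the chromosome end, and these are the 42 genes and the 3 left out, so that the block is unbroken and terminal. RNA was sequenced from a cpn1∆ strain, in which cpn1 is replaced by the HygMX6 cassette, and from the wild-type strain, with 3 biological replicates of each. Both strains are h+ and carry ade6-210, leu1-32, ura4-D18 and the otr1R:ade6+ reporter, and both were in log phase in rich medium (YES) at 32 °C. Each genotype is represented by 1 strain, so that any other difference between the strains cannot be told apart from the deletion. A library averages a whole culture, so a change in all cells cannot be told apart from a change in some of them.

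Caprin proteins such as Cpn1 are known from stress granules. Human CAPRIN1 binds RNA, and its fission yeast ortholog Cpn1 is predicted to do so. Subtelomeres are the gene-containing regions next to the telomeres. In fission yeast their outer parts are packaged into heterochromatin, which carries methylated H3K9 and bound Swi6, and silencing fades towards the centromere side. Subtelomeric genes are typically non-essential and often encode nutrient transporters, metabolic enzymes of narrow use and cell-surface proteins, many of which are induced by starvation or stress. Most genes of the right end of chromosome I fit this description by annotation: amino acid permeases, enzymes of nitrogen compounds, other carriers, oxidoreductases and hydrolases.

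The libraries held between 26461217 and 32916622 counts. The deleted gene cpn1 gave 169, 182 and 194 counts in the cpn1∆ libraries and 7543, 8990 and 9034 counts in the wild-type libraries. These values match the labels of the strains.

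Most of the genes at this end were weakly expressed. Levels are given as CPM, the depth-scaled count with library sizes adjusted by TMM, and genes are compared with each other only as CPM per kb of annotated exon. The median over the 42 genes was 5.13 CPM per kb, against 36.6 CPM per kb over all 5106 protein-coding features, and 8 of the 42 were above the protein-coding median. Of the 42 genes, 14 (33.3%) were under 1 CPM per kb, against 9.85% of protein-coding features. The highest level per length was that of SPAC922.04, an uncharacterised gene, at 853 CPM per kb in cpn1∆ and 914 CPM per kb in wild-type cells. Next came SPAC1039.02, annotated as a phosphoprotein phosphatase, at 214 and 201 CPM per kb in cpn1∆ and wild-type cells. The nitric oxide dioxygenase gene yhb1, which detoxifies nitric oxide, was at 127 CPM per kb in cpn1∆ and 131 CPM per kb in wild-type cells. The carrier genes gdt1 and cat1 followed, with averages of 102 and 97.5 CPM per kb over all libraries. These 5 genes also held most of the reads of the 42 genes, 70.8% of their summed CPM in cpn1∆ and 72.6% in wild-type cells. SPAC922.06, a predicted 3-oxoacyl reductase gene, was listed at 0 in all 6 libraries. So were 313 protein-coding features in all (6.13%), among them genes that every cell uses, such as the actin-related gene arp3 and the chaperonin gene cct2, so a 0 in this table cannot be read as a lack of expression. Without features at 0, 31.7% of the genes at this end and 3.90% of protein-coding features were under 1 CPM per kb.

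**Figure D1:**
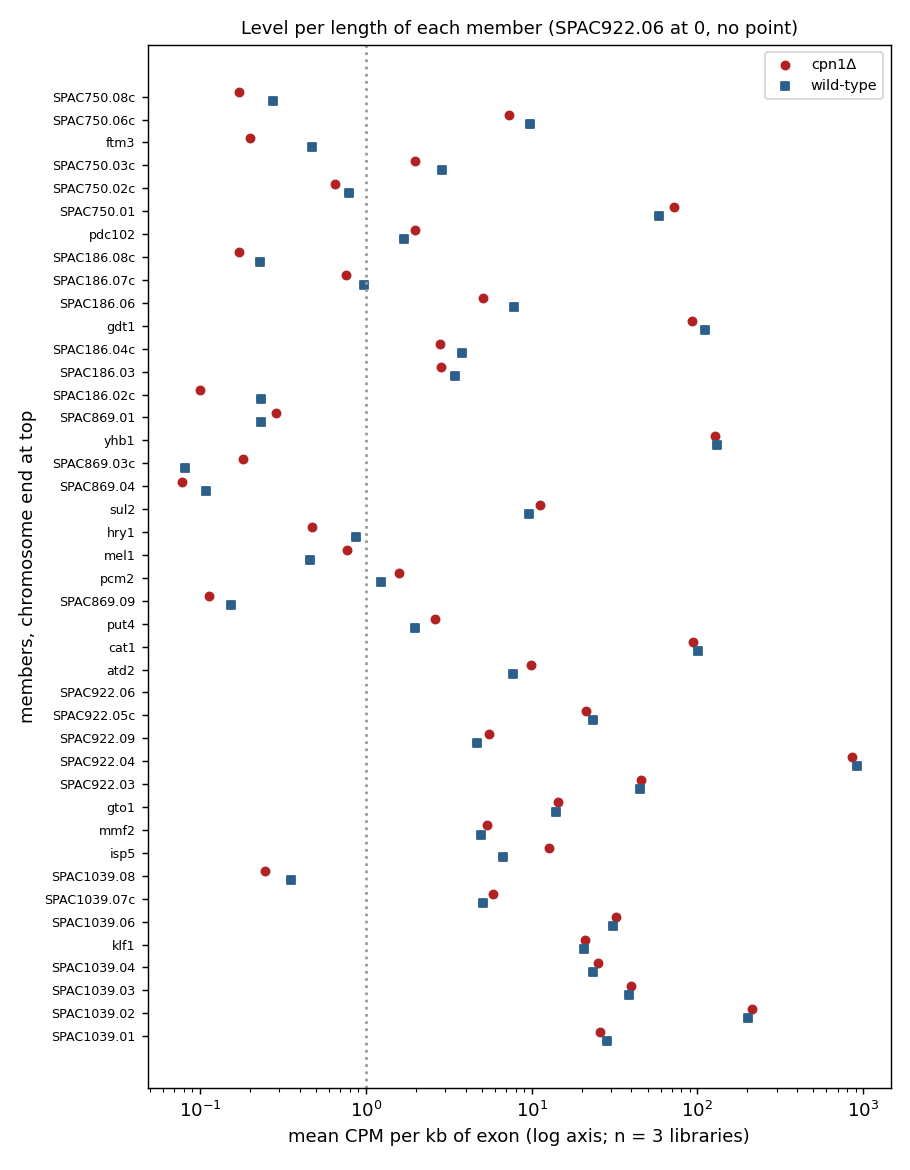
Mean level of each of the 42 genes in CPM per kb of exon on a log axis, in cpn1∆ cells (circles) and wild-type cells (squares), 3 libraries each, with the chromosome end at the top. The genes spread from under 0.1 CPM per kb to 853 and 914 CPM per kb for SPAC922.04, and the symbols of the strains lie close together for most genes. The dotted line marks 1 CPM per kb, and SPAC922.06, listed at 0, has no point.

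The question put to these genes is whether loss of Cpn1 alters transcript levels at a chromosome end. The summed level of the 42 genes was 2320, 2218 and 2177 CPM in the cpn1∆ libraries and 2242, 2225 and 2349 CPM in the wild-type libraries, so that the strains overlap. This sum leaves out ftm4, SPAC750.07c and pfl9, which were lower in cpn1∆ cells. The 5 genes named above hold 70.8% of it in cpn1∆ and 72.6% in wild-type cells. It therefore says little about the weakly expressed genes. Of the 42 genes, 34 had enough counts to be tested with edgeR's quasi-likelihood test. At an FDR under 0.05, 4 of the 34 were higher in cpn1∆ cells, which is 11.8% against 8.36% of all 5812 features tested, and 6 were lower, which is 17.6% against 10.2%. Together these 10 genes were 29.4% of those tested, against 18.6% of all features and 21.0% of protein-coding features tested. The higher genes were isp5, SPAC750.01, atd2 and sul2, and the lower ones were SPAC186.06, SPAC750.06c, gdt1, SPAC1039.01, SPAC922.04 and cat1. The changes were small. Over 1.5-fold, isp5 was the only higher gene (background 0.843%) and SPAC186.06 the only lower gene (background 0.740%). No gene passed a 2-fold threshold (background 0.310% in each direction) with edgeR, DESeq2 or limma voom, nor at an unadjusted p under 0.05, since the largest absolute log2FC among the 34 was 0.90. The median log2FC (cpn1∆ over wild-type) was 0.03 over the 34 genes and 0.01 over all features tested. Among the 34 tested genes, libraries of the strains did not overlap for 8 that were higher and 8 that were lower in cpn1∆ cells. That is 23.5% in each direction, against 17.3% and 18.1% of all features tested. Of the genes with too few counts to test, ftm3 and SPAC186.02c also had every cpn1∆ library below every wild-type library, and none had the reverse.

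**Figure D2:**
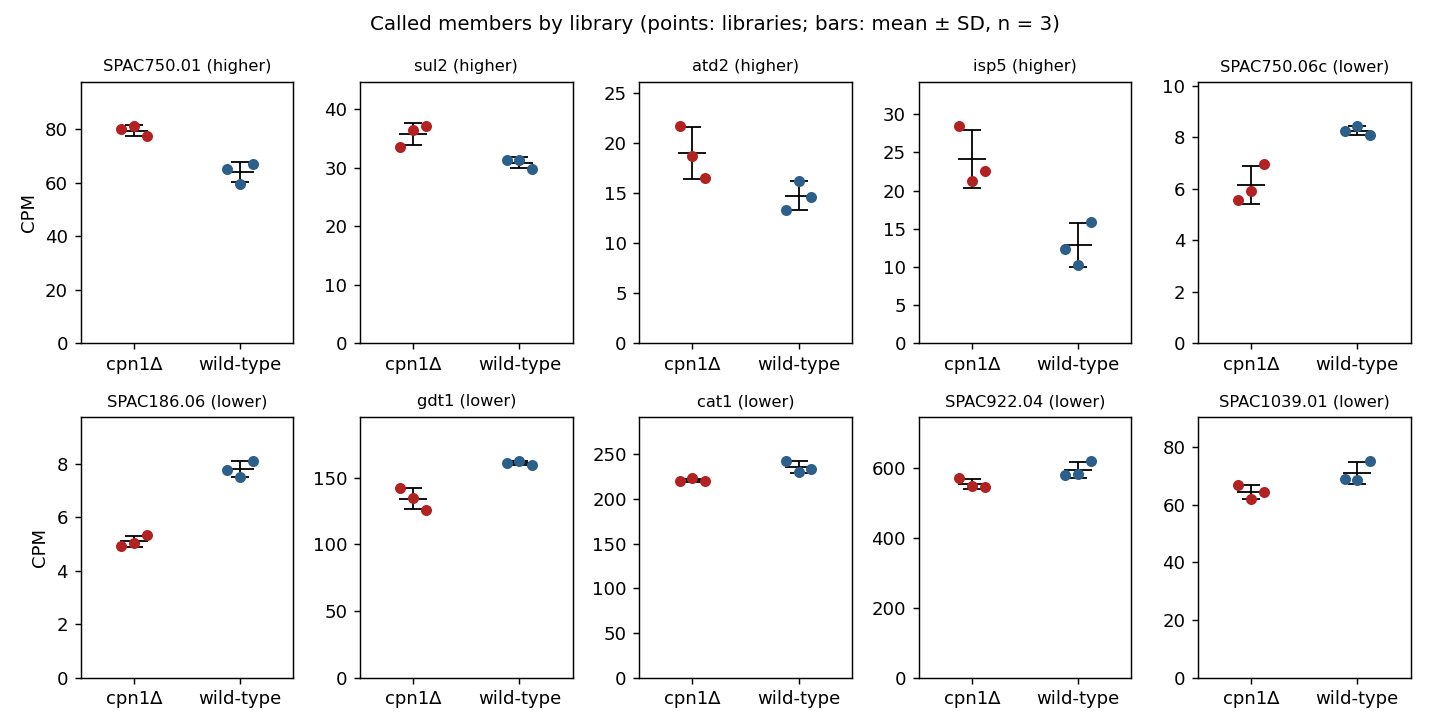
CPM of the 10 genes past the test in each library, cpn1∆ at left and wild-type at right in each panel, on axes that start at 0; points are libraries and bars are the mean ± SD (n = 3). The libraries of the strains are apart in every panel, widely for isp5 and SPAC186.06 and narrowly for cat1 and SPAC922.04.

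Genes of amino acid and nitrogen uptake and use were the largest group, with 13 genes, of which 11 were tested, 1 rose and 2 fell. The called genes were 27.3% of those tested, against 18.6% of all features. Shares of the other role groups rest on still fewer genes. The riser was isp5 (SPAC1039.09), which encodes an amino acid permease and is one of the isp genes, known for induction during sexual differentiation. It gave 28.5, 21.3 and 22.6 CPM in cpn1∆ libraries, against 12.3, 10.2 and 15.9 CPM in wild-type libraries. Every cpn1∆ library was above every wild-type library, and wild-type replicate 3 was the highest of its strain. The means were 24.1 ± 3.82 CPM in cpn1∆ and 12.8 ± 2.87 CPM in wild-type cells (SD, n = 3 each), and the log2FC of 0.90 had a standard error of 0.14 and an adjusted p of 0.000413 (edgeR, quasi-likelihood, Benjamini-Hochberg over all features; likewise below where edgeR is named).

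The fallers of this group were also permease genes. SPAC1039.01, an amino acid permease gene at the inner edge of the block, gave 66.8, 62.0 and 64.5 CPM in cpn1∆ libraries, against 68.8, 68.7 and 75.3 CPM in wild-type libraries. Its log2FC was -0.14 (standard error 0.04, edgeR adjusted p = 0.0409). The gene cat1, whose product imports arginine and lysine, gave 220, 223 and 220 CPM in cpn1∆ libraries, against 243, 230 and 234 CPM in wild-type libraries. Its log2FC was -0.09 (standard error 0.03, edgeR adjusted p = 0.0321). In both genes the libraries of the strains were apart by a margin no larger than the spread within wild-type. Both calls were lost when libraries were scaled by total counts only (adjusted p = 0.0835 for SPAC1039.01 and 0.166 for cat1). With 1 library left out, SPAC1039.01 was lost without cpn1∆ replicate 2 or 3 or wild-type replicate 3 (adjusted p = 0.0699 to 0.155), and cat1 without any of the cpn1∆ replicates or wild-type replicate 1 (adjusted p = 0.0667 to 0.143).

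The proline transporter gene put4 gave 5.53, 5.04 and 5.18 CPM in cpn1∆ libraries, against 3.36, 3.64 and 4.89 CPM in wild-type libraries. The libraries did not overlap, but wild-type replicate 3, the highest of its strain as in isp5, came close to the lowest cpn1∆ library. The log2FC of 0.39 missed the threshold (standard error 0.15, edgeR adjusted p = 0.0897), and it passed without wild-type replicate 3 (log2FC 0.58, adjusted p = 0.0171). Over 82.1% of its length put4 is overlapped by SPNCRNA.1091 on the opposite strand, and whether counting used strand was not stated, so its level is uncertain. The enzymes of the group that could be tested did not pass: the L-asparaginase gene SPAC186.03 (log2FC -0.30, standard error 0.15), the amidase gene SPAC869.01 (0.35, standard error 0.42), the deaminase gene SPAC922.03 (0.02, standard error 0.04), the D-serine ammonia-lyase gene SPAC1039.06 (0.06, standard error 0.04), the alanine-glyoxylate transaminase gene SPAC1039.07c (0.20, standard error 0.10), the serine acetyltransferase gene SPAC1039.08 (-0.51, standard error 0.35) and mmf2 (0.10, standard error 0.17). SPAC1039.08 is covered over 100% and SPAC1039.07c over 92% by features on the opposite strand.

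The urea transporter gene SPAC869.03c and the formamidase-like gene SPAC869.04 had too few counts to be tested. SPAC869.03c had 15, 7 and 13 counts in cpn1∆ libraries, against 7, 3 and 5 in wild-type libraries, and SPAC869.04 had 2, 6 and 1 against 5, 3 and 4. In both genes the libraries of the strains overlapped.

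Among amino acid carriers elsewhere in the genome, 15 genes of a list were tested, of which 1 rose and 4 fell, with a median log2FC of -0.10. The called genes were 33.3% of those tested, against 18.6% of all features and 21.0% of protein-coding features. The vacuolar amino acid transporter gene fnx2 rose (log2FC 0.14, standard error 0.04). The permease genes aat1 (-0.37, standard error 0.03), SPBPB2B2.01 (-0.35, standard error 0.07) and SPCC584.13 (-0.15, standard error 0.04) fell, as did avt3 (-0.10, standard error 0.03). The log2FC of isp5, 0.90, was above the highest value on that list, 0.14. Of 13 tested genes on a list of nitrogen starvation responses, 3 rose and 1 fell, with a median log2FC of 0.01. That was 30.8% of those tested, against the same 18.6% of all features. Of those that rose, isp7, whose product is known to regulate amino acid permease genes, had a log2FC of 0.32 (standard error 0.06, edgeR adjusted p = 0.00166). The protease gene isp6 (0.14, standard error 0.04, edgeR adjusted p = 0.0401) and the invertase gene inv1 (0.25, standard error 0.08, edgeR adjusted p = 0.0428) were close to the threshold. The regulator of sexual differentiation ste11 fell (-0.32, standard error 0.08), and the permease gene per1 was at 0.00 (standard error 0.04).

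Of the 5 other transporter genes, all tested, 1 rose and 1 fell, which is 40.0% against 18.6% of all features. The sulfate transporter gene sul2 gave 33.6, 36.4 and 37.2 CPM in cpn1∆ libraries, against 31.4, 31.4 and 29.8 CPM in wild-type libraries. Every cpn1∆ library was above the wild-type range, and the log2FC was 0.21 (standard error 0.05, edgeR adjusted p = 0.0140), and the call was lost without cpn1∆ replicate 2 or 3 (adjusted p = 0.0537 and 0.0557). The gene gdt1 belongs to a family that in budding yeast acts in calcium and manganese transport at the Golgi. It gave 142, 135 and 126 CPM in cpn1∆ libraries, against 161, 163 and 160 CPM in wild-type libraries. The wild-type libraries lay within a few CPM of each other and all cpn1∆ libraries were below them, and the log2FC was -0.27 (standard error 0.04, edgeR adjusted p = 0.000277). The transporter genes SPAC922.05c (log2FC -0.13, standard error 0.05), SPAC750.02c (-0.27, standard error 0.22) and SPAC1039.04, which encodes a carboxylic acid transporter (0.09, standard error 0.04), did not pass, and SPAC922.05c passed without wild-type replicate 3 (adjusted p = 0.0189).

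Of the 5 oxidoreductase and detoxification genes, 4 were tested and 2 rose. Of all features tested, 18.6% passed in either direction and 8.36% rose. SPAC750.01, an aldo/keto reductase gene near the end of the chromosome, gave 80.0, 81.4 and 77.4 CPM in cpn1∆ libraries, against 65.1, 59.7 and 67.1 CPM in wild-type libraries. All cpn1∆ libraries were higher by more than the spread in either strain, with means of 79.6 ± 2.04 CPM in cpn1∆ and 63.9 ± 3.84 CPM in wild-type cells (SD, n = 3 each). Its log2FC was 0.32 (standard error 0.04, edgeR adjusted p = 0.000219). SPAC750.01 carries fractional counts, which whole reads assigned to 1 gene cannot give, so its level is uncertain.

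The aldehyde dehydrogenase gene atd2, whose product oxidises aldehydes to acids, gave 21.7, 18.7 and 16.5 CPM in cpn1∆ libraries, against 13.3, 16.2 and 14.6 CPM in wild-type libraries. The lowest cpn1∆ library barely exceeded the highest wild-type library. The log2FC was 0.35 (standard error 0.10, edgeR adjusted p = 0.0258), and the call was lost without cpn1∆ replicate 1 or 2 or wild-type replicate 1 (adjusted p = 0.0668 to 0.114). A non-coding feature, SPNCRNA.1090, overlaps 64.6% of atd2 on the opposite strand. The abundant yhb1 was at 269, 249 and 241 CPM in cpn1∆ libraries, against 259, 253 and 274 CPM in wild-type libraries, which overlap (log2FC -0.05, standard error 0.04).

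The gene hry1, which encodes a cation-binding HHE domain protein, had 6, 12 and 14 counts in cpn1∆ libraries, against 35, 6 and 12 in wild-type libraries. Only wild-type replicate 1 was high. Its log2FC of -0.77 (standard error 0.58, edgeR adjusted p = 0.398) rested on that library, and was 0.27 (adjusted p = 0.764) without it.

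None of the 4 tested hydrolase genes passed with edgeR (18.6% of all features did), DESeq2 or limma voom, and 1 had an unadjusted p under 0.05. That was the melibiase gene mel1, whose product cleaves alpha-galactosides. It gave 1.18, 1.34 and 0.827 CPM in cpn1∆ libraries, against 0.679, 0.638 and 0.690 CPM in wild-type libraries. All cpn1∆ libraries were above the narrow wild-type range, but at 18 to 42 counts per library the log2FC of 0.73 missed the threshold (standard error 0.27, edgeR adjusted p = 0.0792). The exact test of edgeR called it (adjusted p = 0.0331), as did the fit without cpn1∆ replicate 3 (adjusted p = 0.0417). SPAC1039.02 gave 450, 418 and 398 CPM in cpn1∆ libraries, against 372, 392 and 428 CPM in wild-type libraries, which overlap (log2FC 0.09, standard error 0.05), and it passed without wild-type replicate 3 (log2FC 0.14, adjusted p = 0.0299). The esterase gene SPAC1039.03 and the alpha-glucosidase gene gto1 each had a log2FC of 0.04 (standard error 0.04), and gto1 is overlapped over 67.1% of its length on the opposite strand.

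Of the 5 keto acid and hydroxyacid enzyme genes, 3 had at most 11 counts in any library and 2 were tested. Neither passed with edgeR (18.6% of all features did), DESeq2 or limma voom, or at an unadjusted p under 0.05. They were pdc102, a pyruvate decarboxylase gene (log2FC 0.22, standard error 0.17), and the hydroxyacid dehydrogenase gene SPAC186.07c (-0.37, standard error 0.33). The other hydroxyacid dehydrogenase gene, SPAC186.02c, had 6, 1 and 3 counts in cpn1∆ libraries, against 8, 8 and 7 in wild-type libraries. The L-lactate dehydrogenase gene SPAC186.08c had 5, 3 and 8 counts in cpn1∆ libraries, against 4, 6 and 11 in wild-type libraries, and the NAD-dependent malic enzyme gene SPAC750.08c, the outermost of all, had 1.67, 5.83 and 2.83 against 5.25, 3.67 and 8.33. The first of these 3 untested genes had no overlap between the strains and the others had. The transcription factor gene klf1, the only regulator of the block, gave 54.4, 52.7 and 55.2 CPM in cpn1∆ libraries, against 52.8, 52.4 and 54.9 CPM in wild-type libraries, which overlap (log2FC 0.02, standard error 0.04).

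The remaining 9 genes encode proteins of other or unknown function. Of these, 7 were tested and 3 fell, which is 42.9% called against 18.6% of all features. SPAC186.06, annotated as an isomerase, gave 4.94, 5.04 and 5.33 CPM in cpn1∆ libraries, against 7.77, 7.50 and 8.12 CPM in wild-type libraries. The libraries of each strain were tightly grouped and the strains were far apart, with means of 5.10 ± 0.202 CPM in cpn1∆ and 7.80 ± 0.314 CPM in wild-type cells (SD, n = 3 each). The log2FC was -0.61 (standard error 0.11, edgeR adjusted p = 0.00157).

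SPAC750.06c, uncharacterised, gave 5.57, 5.91 and 6.98 CPM in cpn1∆ libraries, against 8.23, 8.45 and 8.09 CPM in wild-type libraries. All cpn1∆ libraries were lower, and the log2FC was -0.42 (standard error 0.11, edgeR adjusted p = 0.0191). It carries fractional counts, and the call was lost without cpn1∆ replicate 1 or 2 or wild-type replicate 2 (adjusted p = 0.0623 to 0.0777). SPAC922.04 gave 570, 546 and 545 CPM in cpn1∆ libraries, against 579, 581 and 620 CPM in wild-type libraries. The gap between the strains was smaller than the spread within either, and the log2FC was -0.10 (standard error 0.03, edgeR adjusted p = 0.0476), a call lost in 10 of 18 alternative fits. These were upper quartile scaling (adjusted p = 0.0732), total counts only (0.0854), no low-count filter (0.0512), edgeR's legacy quasi-likelihood (0.0527) and exact (0.0537) tests, and the fits without any 1 library other than cpn1∆ replicate 1 (0.0514 to 0.151). SPAC186.04c, uncharacterised, gave 3.86, 2.07 and 2.76 CPM in cpn1∆ libraries, against 3.81, 3.86 and 4.20 CPM in wild-type libraries. It was at -0.47 (standard error 0.19, edgeR adjusted p = 0.110) and passed without cpn1∆ replicate 1 (log2FC -0.71, adjusted p = 0.0243).

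The others of the 9 did not pass or were not tested. The methyltransferase gene SPAC750.03c had a log2FC of -0.54 (standard error 0.27), the protein repair methyltransferase gene pcm2 of 0.34 (standard error 0.27) and SPAC922.09 of 0.27 (standard error 0.23). In pcm2, wild-type replicate 3 was again the highest of its strain, at 1.91 CPM beside 0.830 and 1.12 CPM. The transmembrane gene ftm3 (SPAC750.04c) had 3.67, 2.17 and 2.17 counts in cpn1∆ libraries, against 4.25, 7.92 and 7.25 in wild-type libraries, and SPAC869.09, of the Con-6 family, had 0, 3 and 3 against 5, 0 and 2. The strains did not overlap in ftm3 and overlapped in SPAC869.09.

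By position, log2FC values were mostly negative in the outer part of the block and mostly positive in the inner part, a division drawn after the values were seen and therefore given without a test. Over all 5812 features tested, 3038 were positive and 2774 negative, and 18.6% passed. On the outer clones SPAC750 and SPAC186, 8 of 10 tested genes had a negative log2FC, with a median of -0.33, and 4 passed the test (SPAC750.01 higher, SPAC186.06, SPAC750.06c and gdt1 lower). On the inner clones SPAC869, SPAC922 and SPAC1039, 17 of 24 were positive, with a median of 0.07, and 6 passed (isp5, atd2 and sul2 higher, SPAC1039.01, SPAC922.04 and cat1 lower). The 3 genes left out of the block by name lie among the outer ones and were lower in cpn1∆ cells: ftm4 had a log2FC of -0.97 (standard error 0.06), SPAC750.07c of -1.78 (standard error 0.17) and pfl9 of -0.58 (standard error 0.16). All 6 genes of the block on SPAC750 carry fractional counts, as do SPAC186.03 and pdc102. Of the 3 genes left out, ftm4 and SPAC750.07c carry them too, and pfl9 has whole counts. How reads were divided between features is not stated, so that the origin of the reads of all genes with fractional counts is uncertain. Of the 8 genes of the block with fractional counts, 6 were tested, with a median log2FC of -0.28. Of its 34 genes with whole counts 28 were tested, with a median of 0.04. The part of shared reads in the pattern was not tested.

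**Figure D3:**
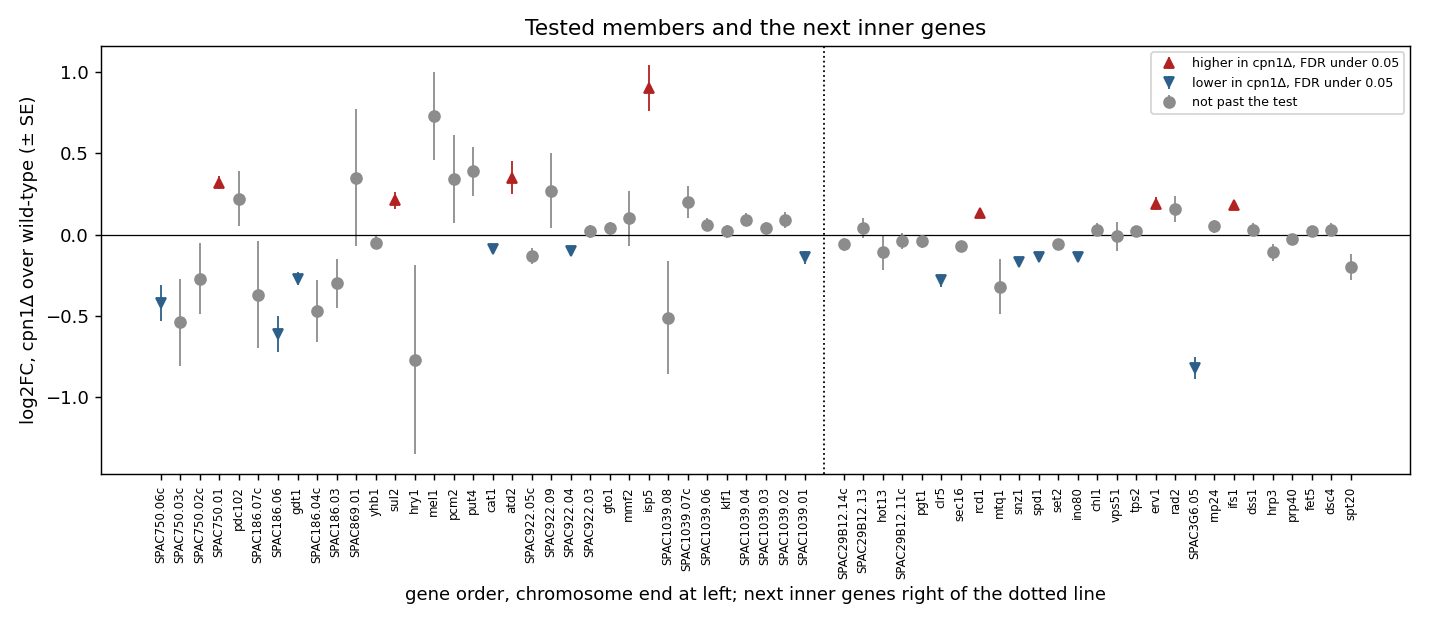
log2FC (cpn1∆ over wild-type, ± SE) of the 34 tested genes in gene order from the chromosome end (left), and of 27 tested genes of the next 30 inwards, right of the dotted line. Triangles mark genes past an FDR of 0.05; isp5 stands at 0.90, and SPAC3G6.05, among the next inner genes, at -0.82.

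Further in, the next 30 protein-coding genes were described in the same way. Of 27 tested, 3 rose and 5 fell, with a median log2FC of -0.04. These 8 genes were 29.6% of those tested, close to the 29.4% of the 34 genes of the block and above the 18.6% of all features. The largest change was in SPAC3G6.05, a gene of the Mpv17/PMP22 family, with 216 ± 29.8 CPM in cpn1∆ and 380 ± 15.0 CPM in wild-type cells (SD, n = 3 each) and a log2FC of -0.82 (standard error 0.07). The silencing factor gene clr5 was also lower, at 165 ± 5.38 CPM in cpn1∆ and 201 ± 9.34 CPM in wild-type cells (SD, n = 3 each), a log2FC of -0.28 (standard error 0.04, edgeR adjusted p = 0.000111). Of 23 non-coding features annotated between the outermost and the innermost gene of the block, 12 were tested. None of the 12 passed with edgeR (18.6% of all features did), DESeq2 or limma voom, or at an unadjusted p under 0.05. They were weakly expressed, at mean levels of at most 5.69 CPM in cpn1∆ and 4.99 CPM in wild-type cells. Their log2FC ran from -0.48 to 0.30, with standard errors of 0.13 to 0.40. SPNCRNA.1091, which overlaps put4, had a log2FC of 0.17 (standard error 0.19). Of 25 tested genes on a list of telomere and silencing factors, 1 passed (4.0%, against 18.6% of all features). That was clr2, with a log2FC of -0.20 (standard error 0.04). From the same list, clr3, sgo2 and leo1 were listed at 0 in all libraries and were not tested.

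The calls differed in whether they held in the alternative fits. Of the 10 calls, 4 held in all 18 alternative fits: isp5 (log2FC 0.76 to 1.10), SPAC750.01 (0.27 to 0.35), gdt1 (-0.31 to -0.22) and SPAC186.06 (-0.65 to -0.58). The other 6 were each lost in at least 1 fit. Leaving a library out also leaves fewer replicates, so a call near the threshold can be lost while its log2FC hardly moves. With 1 library left out, the 6 kept their direction. The log2FC ran from -0.11 to -0.07 in cat1, -0.12 to -0.07 in SPAC922.04 and -0.17 to -0.10 in SPAC1039.01. It ran from -0.53 to -0.36 in SPAC750.06c, 0.18 to 0.25 in sul2 and 0.25 to 0.44 in atd2. Without cpn1∆ replicate 2, 2 genes were higher (isp5 and SPAC750.01) and 2 lower (gdt1 and SPAC186.06). With scaling by total counts only, 4 genes were higher and 3 lower, and SPAC1039.01, SPAC922.04 and cat1 were no longer called.

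**Figure D4:**
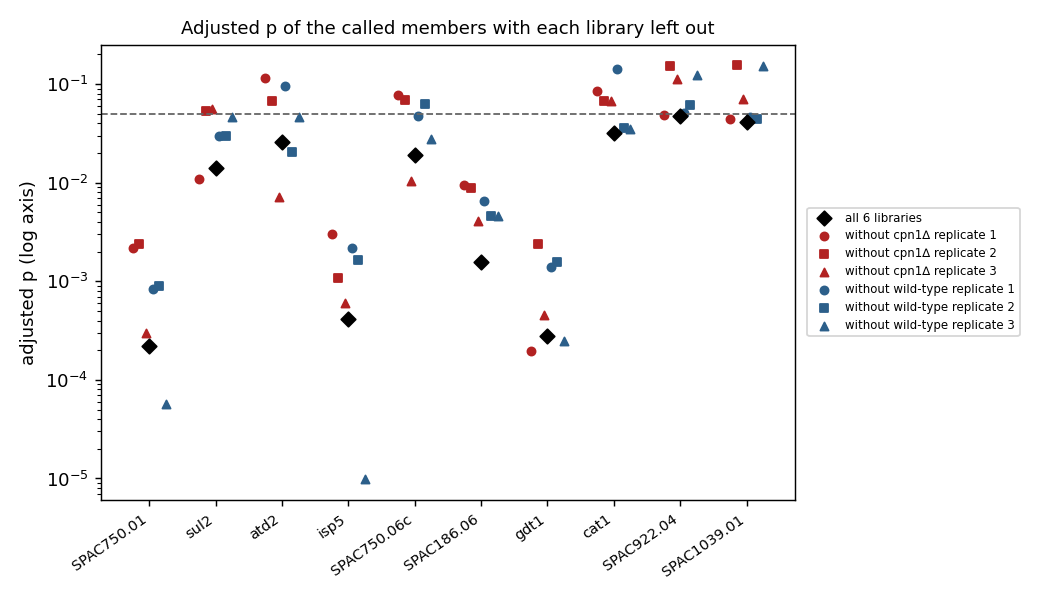
Adjusted p (log axis) of the 10 called genes in the fit of all 6 libraries (diamonds) and with 1 library left out (red, without a cpn1∆ library; blue, without a wild-type library); the dashed line is at 0.05. All points of SPAC750.01, isp5, SPAC186.06 and gdt1 are below the line, and the other 6 genes have points on both sides.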

How the data were processed

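The authors selected polyadenylated RNA, trimmed reads with Cutadapt 4.8, aligned them with STAR 2.7.10b to ASM294v2 and counted them per feature with featureCounts. The authors deposited these as raw counts, not normalized, 1 column per library, and the term expected counts is used here for the deposited values because 760 features hold fractions. The handling of multi-mapping reads and of strand is not given in the sources used here. Whole counts had been assumed, so values were rounded. The row named other, which names no gene (0.608% to 0.647% of the counts), stayed out of every step. Of 7268 features, 6846 matched ASM294v3, which was used for names, exon lengths, gene order and opposite-strand overlap only, since it is not the build of the counting; no coordinates or sequences are given.

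Counts were TMM-scaled and filtered with filterByExpr (minimum count 10), and strains were compared with edgeR 4.0.16 (glmQLFit with legacy FALSE, glmQLFTest) in R 4.3.3, with Benjamini-Hochberg adjustment over 5812 features. Standard errors are the absolute log2FC over the square root of F. The fit was tested on simulated data. Alternatives were RLE, upper quartile and total-count scaling, 3 other low-count filters, edgeR's legacy and exact tests, DESeq2 1.42.0, limma 3.58.1 voom, a replicate block, unrounded counts, each library left out, and the genes without fractional counts or without opposite-strand overlap. P-values set the difference between the strains against the spread among 3 replicates per strain, estimated with information from all features tested. With 1 strain per genotype, they do not cover variation between independently made strains.

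The genes and lists were chosen with earlier results of these data known. By rule, library values are given for genes past the test, the 5 with the highest level per kb and those over 1.5-fold; put4, SPAC186.04c, klf1, pcm2 and the genes with too few counts to test were given with library values after these were seen. Others were named by role, and the uncharacterised SPAC922.04 and SPAC750.06c and the transmembrane gene ftm3, first listed as transporters, were moved to the remaining genes by annotation. The amino acid carrier list had 16 names, of which 15 matched, the nitrogen list 18 names, matching 15 genes, and the silencing list 28 names, all matched.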

Additional observations from a re-analysis of the deposited data

How the results depend on the processing

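At an FDR under 0.05 the count of higher genes was 4 and that of lower genes 6. With 1 library left out, the higher count ran from 2 to 6 and the lower count from 2 to 5, both lowest without cpn1∆ replicate 2. The lower count was 3 with upper quartile scaling and 3 with total counts only, and the higher count stayed at 4 with both, so that the split of calls moved towards higher genes. Over 1.5-fold, the higher count of 1 became 2 with edgeR's exact test and 1 to 2 with a library left out, and the lower count of 1 became 0 with total counts only and 0 to 2 with a library left out (0 without wild-type replicate 3, where SPAC186.06 had a log2FC of -0.58 and stayed past the FDR). The median log2FC of 0.031 was -0.051 without a low-count filter, which brought in 7 further genes, and -0.050 over genes without opposite-strand overlap. The log2FC of hry1 ran from -1.21 to 0.27 with a library left out, and was positive only without wild-type replicate 1. Same-numbered libraries of the strains did not deviate together (correlations -0.0547, 0.0454 and 0.0865), and with the replicate number as a block 4 genes were higher, 6 lower and the median 0.031. Of 302 single-gene alternatives for 17 genes, 265 kept direction and side of the threshold. The 8 genes not tested were set aside by the low-count filter. How large a change could be detected at such levels was not measured.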
